A study of Homo sapiens with 6 samples.

Results

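Chaperones are the proteins that help other proteins reach and keep their folded shape. The 53 genes described here are chaperones and co-chaperones that work mainly in the cytosol and the mitochondria, and among the 53 are the 2 transcription factors HSF1 and HSF2 that switch heat shock genes on. They were chosen by gene symbol among 60605 genes, and their identifiers in the count table were found for all 53. They fall into 6 role groups: 2 transcription factors, 14 stress-inducible chaperones, 14 genes of the constitutive HSP70 machinery, 7 genes of HSP90 and its co-chaperones, the 8 subunits of the CCT ring, and 8 mitochondrial chaperones and proteases.

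Total RNA was sequenced from UMUC3, an established human bladder cancer cell line, in 6 libraries. In 3 libraries the cells were infected with PLVX-IRES-zsgreen carrying TIM-1, and in 3 with the same vector without it (empty vector). The backbone is a lentiviral vector in which a green fluorescent protein follows the inserted gene, so both groups carry the infection and the reporter. TIM-1 is the product of HAVCR1, a cell surface glycoprotein, and the title of the study links it with proliferation and IFIT2 in bladder cancer. The labels number the libraries of each group 1 to 3 and do not say whether they came from separate cultures, and each p-value therefore reflects only how these libraries spread, which may be technical. Whether cells were sorted for the reporter, and whether a group is 1 clone, was not given in the sources used here.

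HSP70 proteins bind short hydrophobic stretches of unfolded protein in a cycle driven by ATP. J-domain proteins (the DNAJ genes) bring them their clients and start ATP hydrolysis, and nucleotide exchange factors such as the BAG proteins and HSPH1 let the client go. HSP90 takes over clients such as kinases and steroid receptors near the end of folding, the CCT ring encloses actin and tubulin, and HSPA9, HSPD1 and HSPE1 do the corresponding work inside mitochondria. When unfolded protein accumulates, HSF1 forms a trimer that binds heat shock elements, arrays of alternating GAA and TTC units, and transcription of the inducible chaperones rises.

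Libraries held 14312387 to 18605914 counts, and 14479 genes were abundant enough to be tested. HAVCR1 counts were 7069, 9824 and 11479 with TIM-1 (replicates 1 to 3) and 4, 0 and 0 with the empty vector, in accord with each library's label. Of 15 urothelial and epithelial markers, 3 (KRT20, EPCAM and UPK3A) were at 0 in all 6 libraries, CDH1 had 2 counts in TIM-1 replicate 1 and 0 elsewhere, and 5 had a mean of at least 1 CPM (reads of the gene scaled to a common library size). Summed marker levels ran from 333.5 to 446.2 CPM with TIM-1 and from 366.4 to 567.9 CPM with the empty vector for epithelium, and from 1459 to 1813 CPM and from 1636 to 2158 CPM for the 3 mesenchymal markers, led by VIM. The 5 leukocyte markers were at 0 in all libraries, and endothelial markers summed to at most 0.27 CPM. The 5 fibroblast markers, of which 1 was at 0 throughout, summed to 9.28 to 15.9 CPM with TIM-1 and 5.67 to 9.33 CPM with the empty vector, and the part of these markers in the results below was not tested.

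Most of the tested chaperones had slightly lower levels with TIM-1 than with the empty vector, by differences that were small for each gene. The summed levels of the TIM-1 and empty-vector libraries overlapped, and their difference was not tested. In the comparison of the groups without regard to replicate number, 0 of the 49 tested chaperones were called by edgeR (adjusted p under 0.05), where 0.0138% of all tested genes were called. At an unadjusted p under 0.05, 3 of the 49 passed in edgeR (DNAJC2, DNAJA3 and HSPA8, all lower with TIM-1). Of all 14479 tested genes 795 passed, so the members' share was near the background. DESeq2 also called 0 members at an adjusted p under 0.05, where it called 25 of 28529 genes with any count. When same-numbered libraries were taken as pairs, edgeR called 5 of the 49 lower with TIM-1, namely HSPA8, HSPA1B, DNAJC2, HSPA9 and DNAJA3, where 1.79% of all tested genes were called lower. None of the 49 was called higher in that paired test, where 3.22% of all tested genes were. DESeq2 with the same pairs called 3 of these 5 (HSPA8, DNAJC2 and HSPA9), where 78 of 28529 genes with any count were called lower. The data set replicate 1 apart but do not tell replicates 2 and 3 apart. A fit of replicate 1 against replicates 2 and 3 in place of the 3 pairs called the same 5 members. That fit called 162 of all 14479 tested genes lower. Without the first pair, edgeR called 1 member lower (DNAJC2), where 2.73% of all tested genes were called lower, so this count was no larger than the background. Without the second pair it called 2 (HSPA1B and HSPA8), where 0.389% of all tested genes were lower, and without the third 7, where 0.918% were.

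The direction was shared widely. Of the 49 tested members, 43 (87.8%) had a negative log2 fold change, against 50.2% of all tested genes, and their median log2 fold change was -0.08 against -0.001 for all genes. Empty-vector replicate 3 had the largest share of counts from mitochondrial DNA, 5.08% against 4.20% to 4.46% in the other 5 libraries, and the largest chaperone sum. Without it the members' median was -0.05, and the part of that library's makeup in the result was not tested. The members are not independent of one another, so these shares describe these 6 libraries only. The 3 TIM-1 libraries all lay below the 3 empty-vector libraries for 6 members, as they did for 5.06% of all tested genes, and all lay above them for 1 member, as for 6.60% of all tested genes. Within the numbered pairs, 17 members (34.7%) were lower with TIM-1 in all 3 pairs, against 19.1% of all tested genes.

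The 53 genes took between 2.25% and 2.74% of the counts of a library. Their summed level was 22175, 26388 and 25351 CPM in the TIM-1 libraries (replicates 1 to 3) and 24993, 26746 and 28326 CPM in the empty-vector libraries. Each TIM-1 library lay below its numbered partner, yet the groups overlapped, because replicate 1 was the lowest of both groups. In bulk RNA, fewer cells that express a gene and less of its RNA per cell cannot be told apart.

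**Figure D1:**
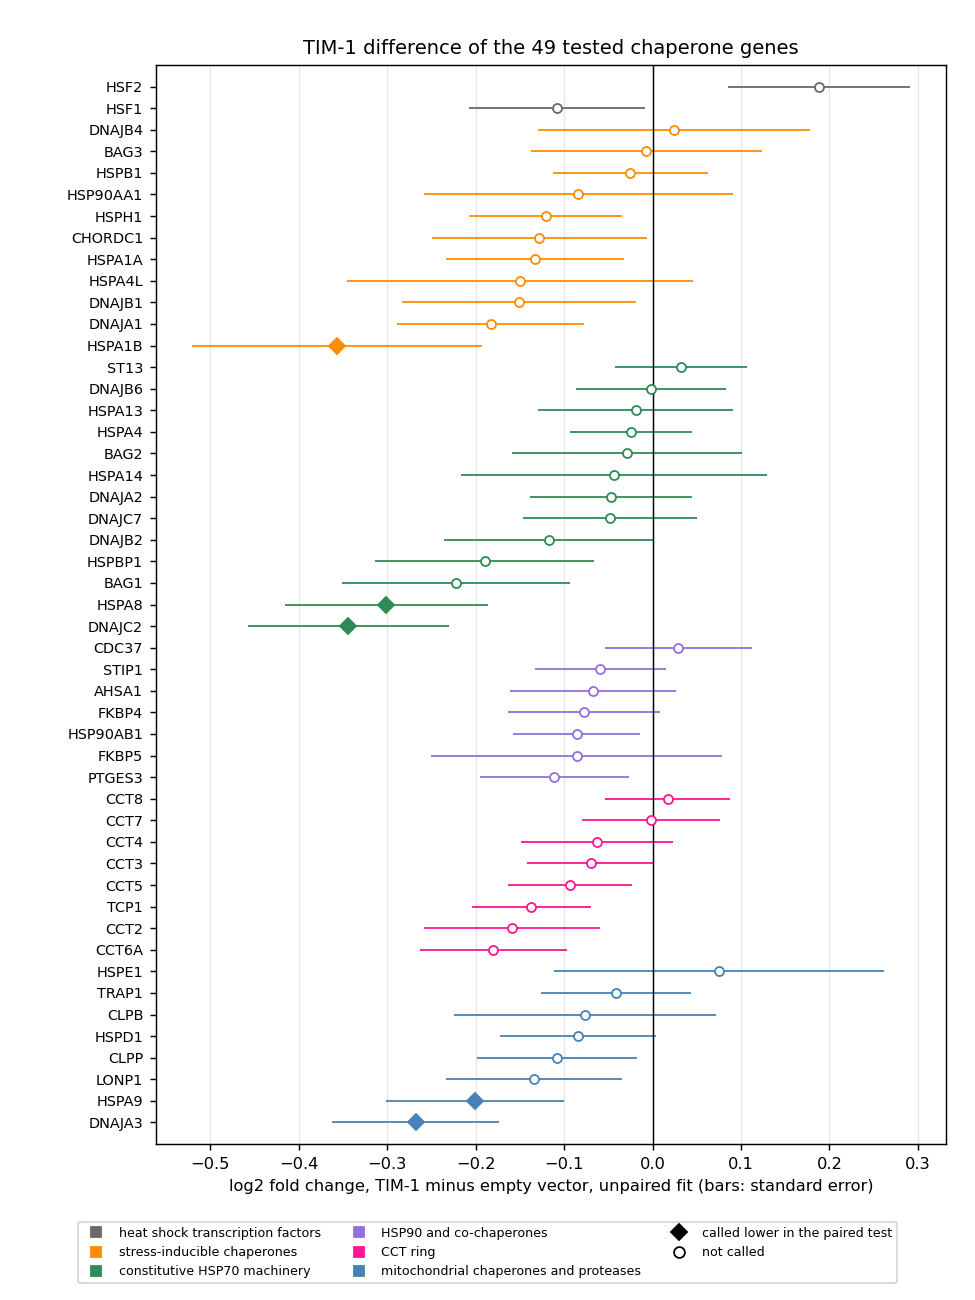
Log2 fold change of each tested chaperone (x axis, TIM-1 minus empty vector, unpaired edgeR fit, bars are standard errors, 3 libraries per group), ordered within role groups that are marked by colour. Of the 49 points, 43 lie left of 0, and the 5 filled diamonds are the genes called lower in the paired test.

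HSF1, the master regulator of the heat shock response, was measured at 134, 131 and 127 CPM in the TIM-1 libraries (replicates 1 to 3) and at 128, 134 and 161 CPM with the empty vector. The groups overlapped, and the empty-vector spread came from replicate 3. Its log2 fold change was -0.11 ± 0.10 (SE), with an adjusted p of 0.921 in edgeR. HSF2, a related factor that can form mixed trimers with HSF1, was at 35.3, 37.1 and 33.8 CPM with TIM-1 and at 32.6, 31.1 and 29.5 CPM with the empty vector. It was the 1 member whose TIM-1 libraries all lay above the empty-vector libraries, but its log2 fold change of 0.19 ± 0.10 (SE) was not called by edgeR, with adjusted p values of 0.893 unpaired and 0.248 paired.

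The heat shock element that HSF1 reads was looked for in the RefSeq promoter windows of these genes, from 250 bases before to 50 bases after each annotated start (GRCh38.p14). The letters searched were GAANNTTC and TTCNNGAA, that is 2 inverted units, each of which reads the same on both strands. At least 1 match lay in 33.3% of the 66 windows found for 46 members, in 60% of the 20 windows of the stress-inducible genes, and in 13.5% of all 35116 windows. Arrays of 3 units (GAANNTTCNNGAA or TTCNNGAANNTTC, each of which contains matches of the shorter form) were in 12.1% of the members' windows and 0.49% of all windows. A gene can have several overlapping windows. Of the 7 members without a window (CCT6A, CLPP, CRYAB, FKBP4, HSF1, HSPA14 and ST13) nothing is given. The stretches below were chosen because their genes carry the comparison of inducible with constitutive chaperones. Each is 30 bases long, 5′ to 3′ on the gene's strand, with the GAA and TTC units of the matches in capitals. A GAA or TTC outside a match stays in lower case, as in HSPA1A and HSPA1B.
HSPA1A (chr6:31815425-31815454, plus strand): gcgaaaaccctgGAAtaTTCccgacctggc
HSPA1B (chr6:31827621-31827650, plus strand): gcgaaacccctgGAAtaTTCccgacctggc
DNAJB1 (chr19:14518457-14518486, minus strand): gcgggcggggcgGAAggTTCtggagggggc
HSP90AA1 (chr14:102087105-102087134, minus strand): tcTTCcgGAAggTTCgggaggcTTCtgGAA
HSP90AB1 (chr6:44247769-44247798, plus strand): gggagcaggTTCtgGAAgaTTCatgggctc
HSPA8 (chr11:123062346-123062375, minus strand): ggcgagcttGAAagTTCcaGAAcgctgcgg
HSPD1 (chr2:197500061-197500090, minus strand): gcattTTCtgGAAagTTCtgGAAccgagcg
HSPA8 and HSP90AB1, from the constitutive groups, and the mitochondrial HSPD1 thus also hold arrays of these letters. The HSP90AA1, HSPA8 and HSPD1 stretches lie wholly within GENCODE 29 exons of their own gene, and the other printed stretches lie outside them. Of those others, HSPA1A and HSPA1B stretches lie before the annotated gene. The DNAJB1 and HSP90AB1 stretches lie inside its span (14514770 to 14529770 for DNAJB1, 44246166 to 44253888 for HSP90AB1), at an inner start. DNAJB1, HSP90AA1, HSP90AB1 and HSPD1 also have windows without a match. DNAJC2 and DNAJA3, both called lower in the paired test, had no match in their windows, while HSPA9, also called lower, had 1. The stress-inducible genes HSPH1 and BAG3 had no match either. A match is a description of letters and not a measured binding site, and no match says only that these letters are not in this window.

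The stress-inducible group had 11 tested members, of which 10 had a negative log2 fold change, with a median of -0.13. In the paired edgeR test 1 was called lower, HSPA1B, and 0 higher. The sum of the group was 6026, 8777 and 7782 CPM in the TIM-1 libraries (replicates 1 to 3) and 7094, 8255 and 8668 CPM with the empty vector, so it was higher with TIM-1 in the second pair and lower in the other 2. HSP90AA1, the inducible cytosolic HSP90, made up most of this sum.

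HSPA1B encodes the main stress-inducible HSP70 together with its neighbour HSPA1A, both on chromosome 6 (31827735 to 31830255 for HSPA1B and 31815464 to 31817946 for HSPA1A in GENCODE 29 on GRCh38, the assembly of hg38). HSPA1B was at 60.3, 48.0 and 49.3 CPM in the TIM-1 libraries (replicates 1 to 3) and at 85.5, 57.0 and 59.3 CPM in the empty-vector libraries, with means of 52.6 ± 6.74 and 67.3 ± 15.8 CPM (SD, n = 3 each). It was lower with TIM-1 in each pair, and the groups overlapped because replicate 1 was the highest of both. Its log2 fold change was -0.36 ± 0.16 (SE) unpaired, with an edgeR adjusted p of 0.891, and -0.34 ± 0.08 (SE) paired, with an edgeR adjusted p of 0.00326. The call was lost with DESeq2 (paired adjusted p = 0.0534) and without the first pair (edgeR adjusted p = 0.0639). Unpaired, its log2 fold change was -0.15 without empty-vector replicate 1.

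HSPA1A was at 60.9, 71.0 and 69.5 CPM with TIM-1 and at 77.1, 67.0 and 77.0 CPM with the empty vector. It was higher with TIM-1 in the second pair and lower in the others, and its log2 fold change was -0.13 ± 0.10 (SE), with edgeR adjusted p values of 0.917 unpaired and 0.355 paired. The coding sequences of the pair are 1923 bases long and differ at 4 bases, with 1 identical run of 1709 bases, and 68.8% of the 100-base windows of HSPA1B's transcript also occur in HSPA1A. Another annotated transcript, AL671762.1, overlaps 36.5% of the exon bases of HSPA1B. How reads that match both genes were counted was not given in the sources used here, so the split between the rows is uncertain. The ratio of HSPA1A to HSPA1B counts was 1.01, 1.48 and 1.41 in the TIM-1 libraries, against 0.901, 1.18 and 1.30 in the empty-vector libraries, lowest in replicate 1 of both groups. Added together, the 2 rows held 121.2, 119.1 and 118.8 CPM with TIM-1 and 162.6, 124.0 and 136.3 CPM with the empty vector, and these groups did not overlap. The summed log2 fold change was -0.24 ± 0.11 (SE) unpaired (edgeR adjusted p = 0.891) and -0.23 ± 0.07 (SE) paired (edgeR adjusted p = 0.0383). The sum was tested with pairs only after the data had been seen.

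HSP90AA1 was the most abundant chaperone here, at 1107 CPM per kilobase of exon (the length of all its annotated exons) on average. Its libraries were at 4229, 6844 and 5850 CPM with TIM-1 and at 5043, 6287 and 6612 CPM with the empty vector. TIM-1 replicate 2 was the highest of all 6 libraries, replicate 1 was the lowest of both groups, and the groups overlapped. The log2 fold change was -0.08 ± 0.18 (SE), with edgeR adjusted p values of 0.964 unpaired and 0.404 paired, and it turned to 0.09 without TIM-1 replicate 1. HSPB1, the small heat shock protein that holds unfolded clients without ATP, was at 637, 624 and 647 CPM with TIM-1 and at 602, 612 and 727 CPM with the empty vector. Empty-vector replicate 3 stood above the rest, and the log2 fold change of -0.03 ± 0.09 (SE; edgeR adjusted p = 0.986) turned to 0.07 without it.

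DNAJB1, the J-domain partner of inducible HSP70, was at 154, 137 and 141 CPM with TIM-1 and at 196, 137 and 145 CPM with the empty vector. Replicate 1 was the highest library of both groups, and the log2 fold change of -0.15 ± 0.13 (SE; edgeR adjusted p = 0.921) turned to 0.02 without empty-vector replicate 1. HSPH1, which exchanges nucleotide on HSP70, was at 229, 263 and 246 CPM with TIM-1 and at 288, 255 and 260 CPM with the empty vector, with a log2 fold change of -0.12 ± 0.09 (SE; edgeR adjusted p = 0.915). Neither gene was called in the paired test.

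The other tested inducible genes were DNAJA1, a J-domain protein, DNAJB4, the HSP70 exchange factor BAG3, the HSP110 relative HSPA4L, and CHORDC1, which binds HSP90. Their log2 fold changes ran from -0.18 for DNAJA1 to 0.02 for DNAJB4, and none was called by edgeR. DNAJA1 came nearest, with a paired log2 fold change of -0.19 and an edgeR adjusted p of 0.0508. The remaining 3 inducible genes were near or at 0 in counts: the small heat shock protein HSPB8 had 3 counts and CRYAB also 3 over all 6 libraries, and SERPINH1, a collagen chaperone of the endoplasmic reticulum, had 0 in each, which allows up to 0.162 to 0.207 CPM for counting error alone.

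The constitutive HSP70 machinery had 13 tested members, of which 12 had a negative log2 fold change, with a median of -0.05. In the paired edgeR test 2 were called lower, HSPA8 and DNAJC2, and 0 higher. The group's sum was 3842, 4503 and 4573 CPM with TIM-1 and 4639, 4925 and 5294 CPM with the empty vector. These ranges did not overlap, and neither did those of HSP90 and its co-chaperones. HSPA8 alone made up most of the HSP70 machinery's sum.

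HSPA8 (HSC70), the constitutive cytosolic HSP70, lies on chromosome 11 (123057489 to 123063230). It was at 2133, 2733 and 2784 CPM in the TIM-1 libraries (replicates 1 to 3) and at 2823, 3122 and 3480 CPM in the empty-vector libraries, with means of 2550 ± 362 and 3142 ± 328.5 CPM (SD, n = 3 each). Every TIM-1 library lay below every empty-vector library, and replicate 1 was the lowest in each group. The log2 fold change was -0.30 ± 0.12 (SE) unpaired, with an edgeR adjusted p of 0.829, and -0.31 ± 0.06 (SE) paired, with an edgeR adjusted p of 0.000536. A paired decrease of this size is 19.1% of the empty-vector level. DESeq2 called it with pairs at an adjusted p of 8.3e-05. Without the first pair the edgeR call was lost, at an adjusted p of 0.0751. Small nucleolar RNA genes lie in HSPA8, and 3.61% of its exon bases overlap those of SNORD14C and SNORD14D.

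DNAJC2, a J-domain protein that sits on ribosomes with HSPA14 and meets chains as they are made, lies on chromosome 7 (103312474 to 103344873). It was at 77.3, 80.7 and 67.3 CPM with TIM-1 and at 94.5, 107.3 and 84.2 CPM with the empty vector, with means of 75.1 ± 6.996 and 95.3 ± 11.6 CPM (SD, n = 3 each). The groups did not overlap, and replicate 3, not replicate 1, was the lowest in each. The log2 fold change was -0.34 ± 0.11 (SE) unpaired (edgeR adjusted p = 0.731) and -0.34 ± 0.07 (SE) paired (edgeR adjusted p = 0.00105), and DESeq2 with pairs gave an adjusted p of 0.0111. It was the 1 member still called by edgeR without the first pair (adjusted p = 0.00222), and the call was lost without the second (adjusted p = 0.148). Of its exon bases, 9.57% overlap PMPCB on the other strand, and how strand was treated was not given in the sources used here. Its ribosome partner HSPA14 had a log2 fold change of -0.04 and was not called. HSPA14 also shares 20.1% of its 100-base windows with a second gene annotated under the same symbol.

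HSPA4, an HSP110 exchange factor, was next to HSPA8 in level per kilobase of exon in this group. It was at 484, 502 and 505 CPM with TIM-1 and at 505, 498 and 513 CPM with the empty vector, and its log2 fold change of -0.02 ± 0.07 (SE) was not called by edgeR (adjusted p = 0.98). The other tested genes of the machinery were the J-domain proteins DNAJA2, DNAJB2, DNAJB6 and DNAJC7, the exchange factors HSPBP1, BAG1 and BAG2, the HSP70-HSP90 adaptor family member ST13 and the microsome-associated HSPA13. Their log2 fold changes ran from -0.22 for BAG1 to 0.03 for ST13, and none was called by edgeR with or without pairs. HSPA2, best known from the testis, had between 2 and 14 counts per library and was not tested.

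**Figure D2:**
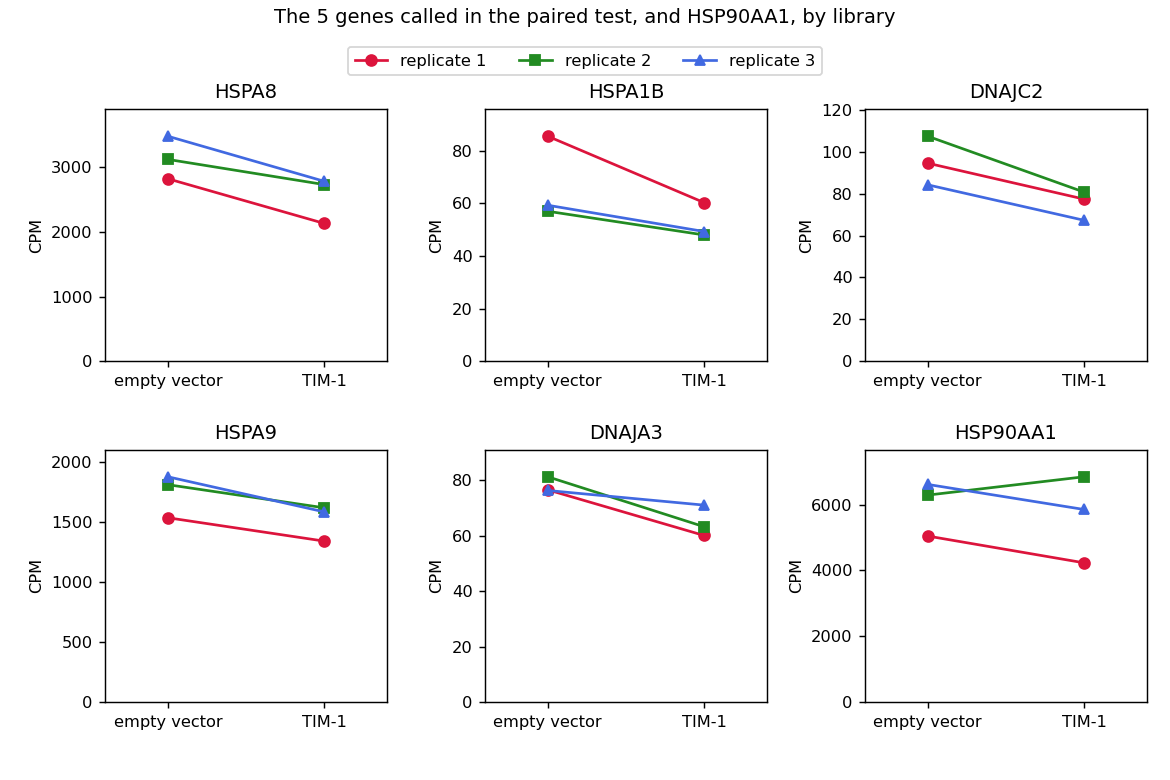
Level in CPM (y axes, each from 0) of the 5 genes called in the paired test and of HSP90AA1, by group, with same-numbered libraries joined. In each of the first 5 panels the TIM-1 library is lower in all 3 pairs, while HSP90AA1 is higher with TIM-1 in replicate 2 and lower in the other 2.

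HSP90AB1, the constitutive HSP90, was at 965 CPM per kilobase of exon on average and HSPA8 at 587. Per kilobase of the longest coding transcript, a length tried after the data had been seen, the order turned, at 1075 for HSP90AB1 and 1156 for HSPA8, so the 2 are not ranked here. It was at 2928, 2753 and 2686 CPM with TIM-1 and at 3082, 2816 and 2986 CPM with the empty vector. It was lower in each pair, the groups overlapped, and the log2 fold change of -0.09 ± 0.07 (SE) was not called by edgeR, with adjusted p values of 0.921 unpaired and 0.458 paired. PTGES3 (p23), which stabilises the closed form of HSP90, was at 670, 722 and 695 CPM with TIM-1 and at 714, 708 and 830 CPM with the empty vector, with a log2 fold change of -0.11 ± 0.08 (SE; edgeR adjusted p = 0.917). The other co-chaperones were STIP1, which hands clients from HSP70 to HSP90, AHSA1, which speeds its ATPase, CDC37, which brings kinases, and the immunophilins FKBP4 and FKBP5 of steroid receptor complexes. Of the 7 genes of the group 6 had a negative log2 fold change, CDC37 at 0.03 being the exception, the median was -0.08, and 0 were called by edgeR with or without pairs.

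The balance of the HSP90 isoforms differed with the replicate number. Per kilobase of exon, the ratio of HSP90AA1 to HSP90AB1 was 0.820, 1.41 and 1.24 in the TIM-1 libraries (replicates 1 to 3) and 0.929, 1.27 and 1.26 in the empty-vector libraries. The ratio was lowest in replicate 1 of both groups. Per kilobase of the longest coding transcript it was 1.10 in TIM-1 replicate 1 and 1.25 in empty-vector replicate 1, so which form led there depends on the length used.

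All 8 subunits of the CCT ring, which stand in equal numbers in each ring, lay between 97.3 and 184 CPM per kilobase of exon on average. Of the 8, 7 had a negative log2 fold change, with a median of -0.08 and a range from -0.18 for CCT6A to 0.02 for CCT8, and 0 were called by edgeR with or without pairs. In 6 of the 8 the TIM-1 library was lower in all 3 pairs, as it was for 19.1% of all tested genes. In 3 (TCP1, CCT5 and CCT6A) all TIM-1 libraries lay below all empty-vector libraries, as they did for 5.06% of all tested genes. The subunits are not independent of one another. TCP1, the subunit that gave the complex its name, was at 720, 736 and 723 CPM with TIM-1 and at 804, 784 and 807 CPM with the empty vector. Its log2 fold change was -0.14 ± 0.07 (SE), with edgeR adjusted p values of 0.891 unpaired and 0.176 paired. CCT6A came nearest to the threshold, with an edgeR adjusted p of 0.0554 in the paired test.

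The 2 most abundant subunits per kilobase of exon were CCT7 and CCT3. CCT7 was at 632, 653 and 691 CPM with TIM-1 and at 623, 651 and 706 CPM with the empty vector. Its log2 fold change of -0.00 ± 0.08 (SE; edgeR adjusted p = 0.997) took either sign when single libraries were left out, and its TIM-1 libraries lay within the empty-vector range. CCT3 was at 657, 684 and 690 CPM with TIM-1 and at 677, 712 and 743 CPM with the empty vector, lower in each pair, with a log2 fold change of -0.07 ± 0.07 (SE; edgeR adjusted p = 0.931). CCT2 and CCT4 were lower in all 3 pairs as well, at log2 fold changes of -0.16 and -0.06. The sum of the ring was 4385, 4673 and 4688 CPM with TIM-1 and 4673, 4863 and 5092 CPM with the empty vector.

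**Figure D3:**
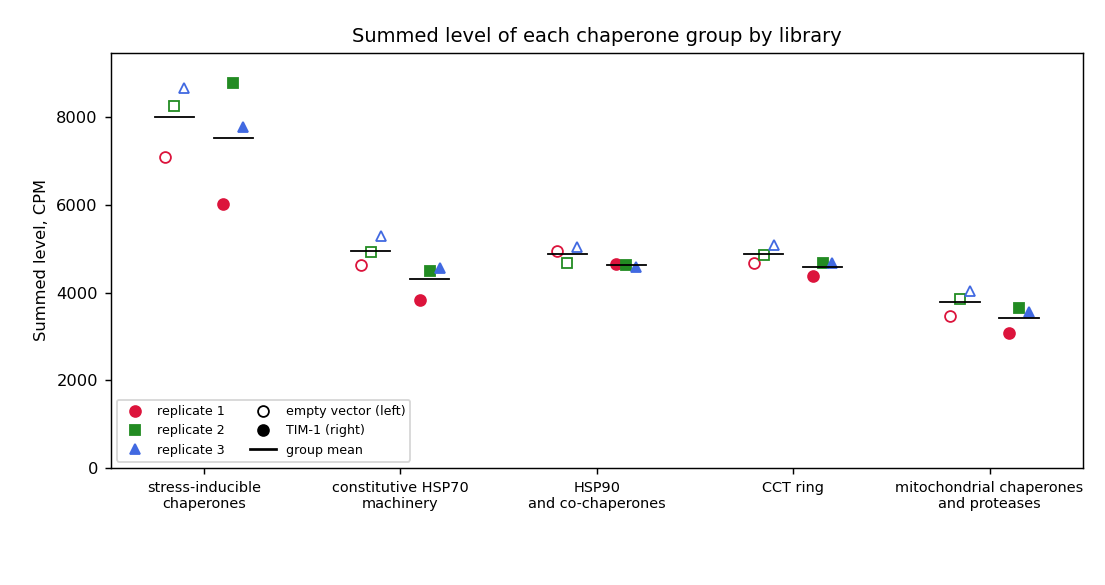
Summed level in CPM (y axis, from 0) of 5 role groups (x axis) in each library, with the empty vector left and TIM-1 right and group means as lines, n = 3 each. The TIM-1 libraries of the constitutive HSP70 machinery (3842 to 4573 CPM) lie below its empty-vector libraries (4639 to 5294 CPM). Those of HSP90 and its co-chaperones do so too (4578 to 4665 against 4683 to 5043 CPM). The CCT and mitochondrial sums overlap, and the stress-inducible sums overlap widely.

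Of the 8 mitochondrial chaperones and proteases, 7 had a negative log2 fold change, with a median of -0.10. In the paired edgeR test 2 were called lower, HSPA9 and DNAJA3, and 0 higher. HSPA9 (mortalin), the HSP70 of the mitochondrial matrix and the motor of protein import, lies on chromosome 5 (138553756 to 138575724). It was at 1343, 1621 and 1587 CPM in the TIM-1 libraries (replicates 1 to 3) and at 1538, 1814 and 1880 CPM in the empty-vector libraries, with means of 1517 ± 152 and 1744 ± 182 CPM (SD, n = 3 each). It was lower in each pair, but the groups overlapped, since empty-vector replicate 1 lay below TIM-1 replicates 2 and 3. The log2 fold change was -0.20 ± 0.10 (SE) unpaired (edgeR adjusted p = 0.893) and -0.20 ± 0.06 (SE) paired (edgeR adjusted p = 0.0288). DESeq2 with pairs gave an adjusted p of 0.0195. The edgeR call was lost without any 1 of the 3 pairs, with adjusted p values of 0.141, 0.243 and 0.0599 without pairs 1, 2 and 3.

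DNAJA3, the J-domain partner of HSPA9, lies on chromosome 16 (4425805 to 4456775). It was at 60.0, 63.2 and 71.0 CPM with TIM-1 and at 76.5, 81.2 and 76.3 CPM with the empty vector, with means of 64.7 ± 5.64 and 78.0 ± 2.79 CPM (SD, n = 3 each). The groups did not overlap. The log2 fold change was -0.27 ± 0.09 (SE) unpaired (edgeR adjusted p = 0.775) and -0.27 ± 0.07 (SE) paired (edgeR adjusted p = 0.0194). The call was lost with DESeq2 (paired adjusted p = 0.171) and in edgeR without the first pair (adjusted p = 0.0834) or the second (adjusted p = 0.403).

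HSPD1 (HSP60) and HSPE1 (HSP10) form the mitochondrial folding chamber and its lid, and lie head to head on chromosome 2. HSPD1 was at 1322, 1606 and 1547 CPM with TIM-1 and at 1501, 1587 and 1657 CPM with the empty vector, with a log2 fold change of -0.08 ± 0.09 (SE; edgeR adjusted p = 0.931). HSPE1 was at 6.62, 8.54 and 9.93 CPM with TIM-1 and at 7.64, 8.78 and 7.48 CPM with the empty vector, with a log2 fold change of 0.08 ± 0.19 (SE; edgeR adjusted p = 0.972). Groups overlapped for both, and neither was called with pairs. The other mitochondrial genes were TRAP1, an HSP90, the disaggregase CLPB, and CLPP and LONP1, which degrade matrix proteins. Their log2 fold changes ran from -0.13 for LONP1 to -0.04 for TRAP1, and none was called by edgeR.

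**Figure D4:**
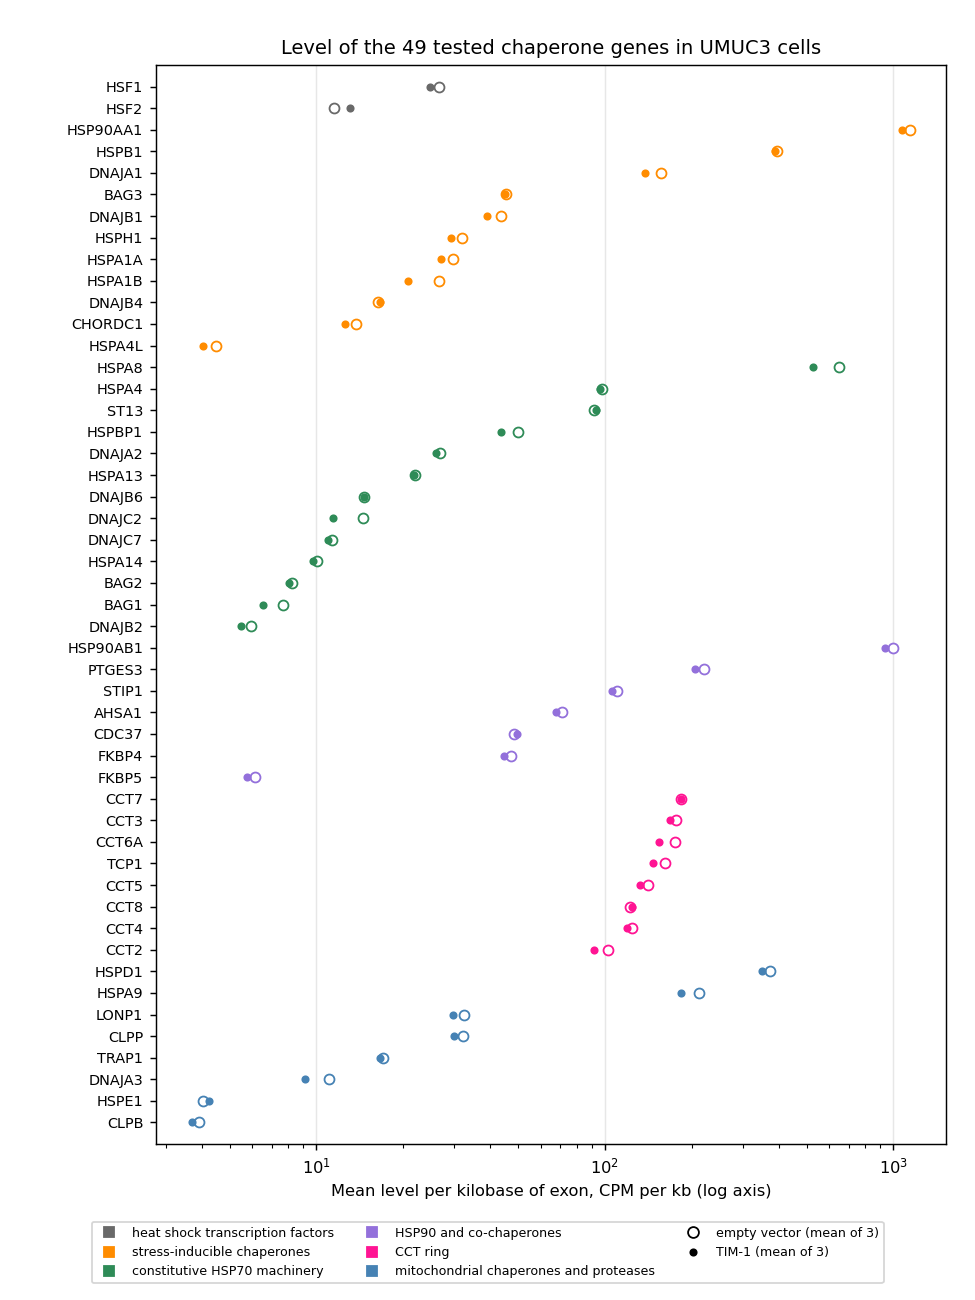
Mean level of the 49 tested chaperones in CPM per kilobase of exon (x axis, log scale), with filled points for TIM-1 and open circles for the empty vector (means of 3 libraries), by role group. HSP90AA1 and HSP90AB1 lie near 1000 CPM per kilobase in both groups, the CCT subunits average between 97.3 and 184, and HSPE1 and CLPB lie lowest in the mitochondrial group.

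Set side by side, the medians of the log2 fold change were -0.13 for stress-inducible chaperones (11 tested), -0.05 for the constitutive HSP70 machinery (13 tested), -0.08 for HSP90 and co-chaperones (7 tested), -0.08 for the CCT ring (8 tested) and -0.10 for the mitochondrial genes (8 tested). Single libraries moved them: without TIM-1 replicate 1 they were -0.07, -0.105, -0.02, -0.06 and -0.07 in the same order, so the medians do not rank the groups. Paired calls numbered 1, 2, 0, 0 and 2 in these 5 groups, all lower. Differences between the groups were not tested. Among 68 further genes of the chaperone network, listed by function, 58 were tested and had a median log2 fold change of 0.03, with 27 of 58 negative. edgeR called 0 of them unpaired. With pairs it called 2 higher and 1 lower, shares near the 3.22% and 1.79% of all tested genes, so the 3 are given as values only. The J-domain gene DNAJB5 was higher, at 27.0, 26.4 and 25.5 CPM with TIM-1 and between 18.6 and 22.9 CPM with the empty vector (paired log2 fold change 0.39 ± 0.10 (SE), edgeR adjusted p = 0.0162). HSPB11, a small protein of intraflagellar transport, was higher, at 64.1, 68.1 and 66.2 CPM with TIM-1 and between 47.8 and 63.8 CPM with the empty vector (paired log2 fold change 0.25 ± 0.08 (SE), edgeR adjusted p = 0.0497). TIMM44, which anchors HSPA9 to the import channel, was at 65.5, 83.5 and 84.0 CPM with TIM-1 and 79.1, 92.8 and 105.9 CPM with the empty vector, lower by a paired log2 fold change of -0.25 ± 0.07 (SE; edgeR adjusted p = 0.0209). DESeq2 with pairs called none of these 3. Without the third pair edgeR called none of them either, with adjusted p values of 0.0596 for DNAJB5, 0.484 for HSPB11 and 0.143 for TIMM44. The same held without the second pair (edgeR adjusted p values of 0.319, 0.151 and 0.148). Without the first pair, DNAJB5 (edgeR adjusted p = 0.0137) and TIMM44 (0.0483) stayed called and HSPB11 (0.0592) did not. HSPA6, an HSP70 that is nearly silent without strong stress, stayed at or below 0.804 CPM in every library.

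More members were called by replicate number than with TIM-1. In edgeR, with the group as a term, 12 of the 49 members were called lower in replicate 1 than in replicates 2 and 3, where 12.0% of all tested genes were. Another 5 were called higher, where 11.6% were, so the count of higher members was no larger than the background. The labels do not say what the number marks. The lower genes were HSP90AA1, HSPA4L, FKBP5, CLPB, DNAJB4, HSPBP1, HSPA8, BAG1, HSPA9, DNAJA1, CCT2 and HSPD1, with HSP90AA1 at -0.47 ± 0.07 (SE, log2; edgeR adjusted p = 3.07e-05). The higher genes were HSPA14, HSPA1B, BAG3, DNAJB1 and HSPA13, with HSPA1B at 0.44 ± 0.08 (SE, log2; edgeR adjusted p = 0.000265). Of the 17 calls, 7 were left without TIM-1 replicate 1 and 8 without empty-vector replicate 1. The fit without TIM-1 replicate 1 called 7 of the 49 members and 1617 of all 14809 tested genes. The fit without empty-vector replicate 1 called 10 members and 1378 of all 14854 tested genes. For HSPA8, empty-vector replicate 1 lay above both other TIM-1 libraries.

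Within the inducible group the replicate difference ran both ways: HSPA1B, DNAJB1 and BAG3 were higher in replicate 1, while HSP90AA1, HSPA4L, DNAJA1 and DNAJB4 were lower. Of the 5 genes called with TIM-1 in the paired test, HSPA8 and HSPA9 were lower both in replicate 1 and with TIM-1, HSPA1B was higher in replicate 1 and lower with TIM-1, and DNAJC2 (0.02, log2) and DNAJA3 (-0.10) were not called in replicate 1. The part of the replicate difference in the TIM-1 calls was not tested beyond these fits.

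**Figure D5:**
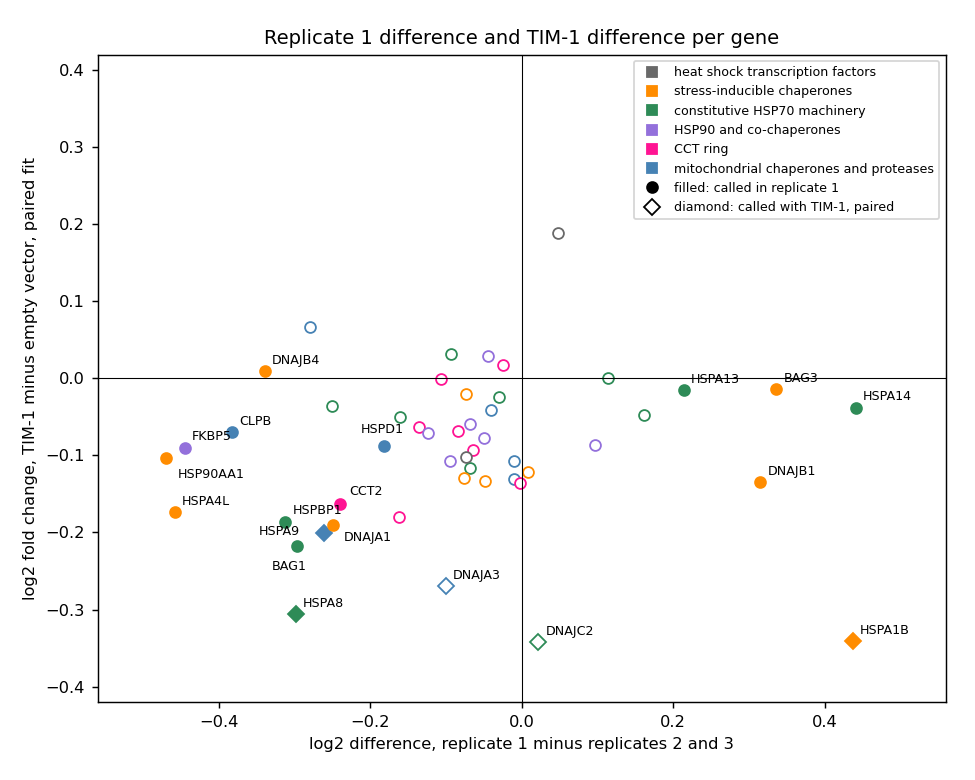
Each point is 1 of the 49 tested chaperones, placed by its log2 difference of replicate 1 minus replicates 2 and 3 (x axis) and its paired log2 fold change, TIM-1 minus empty vector (y axis), coloured by role group. Filled points were called in replicate 1 and diamonds with TIM-1. HSPA1B stands at the lower right, HSPA8 and HSPA9 at the lower left, and replicate differences reach further from 0 than TIM-1 differences.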

How the data were processed

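The deposited table holds raw counts, 1 column per library and 1 row per Ensembl gene, which the authors left unnormalized. The submitters' processing notes name hg38, HISAT2 2.0.5, featureCounts 1.5.0-p3 and DESeq2 1.16.1. The annotation release, strand setting and rule for reads with several matches were not given in the sources used here.

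Genes kept by filterByExpr (minimum count 10) went into edgeR 4.0.16 (robust quasi-likelihood fit and F test, TMM factors) in R 4.3.3, two-sided, with Benjamini-Hochberg adjustment over all 14479 and a threshold of 0.05. The planned main fit had no term but the group. The labels' treatment set the groups, and titles gave the replicate numbers. Same-numbered libraries deviated together from their group means, with correlations of 0.53, 0.23 and 0.26 for replicates 1 to 3, all over the limit of 0.1, so paired fits are given beside it. Between different numbers they ran from -0.40 to 0.26, so the data set replicate 1 apart and do not tell replicates 2 and 3 apart. The pairing comes from these values and not from the labels. The biological coefficient of variation was 14.2% unpaired and 6.67% paired, with 4 and 2 residual degrees of freedom. CPM use TMM-scaled library sizes, and per-kilobase levels divide them by GENCODE 29 exon length. Log2 fold changes are coded with TIM-1 first, with standard errors derived from the F statistic. DESeq2 1.42.0, RLE factors, no filter, leaving out libraries and adding HSPA1A to HSPA1B were the alternatives. The scripts were tested on simulated counts.

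Members and lists were chosen with earlier results of these data known. Every member is named. Values per library are given for members called in either fit, for the 2 of highest level per kilobase in each role and for 10 key genes fixed by name, and further lists name up to 3 called genes. HSPA5 and HSPA6, both on those lists, and the detail on DNAJA1, TCP1 and CCT6A were picked for the text after their values were seen.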

Additional observations from a re-analysis of the deposited data

How the results depend on the processing

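With the replicate block, the paired fit of same-numbered libraries, the number of called chaperones rose from 0 to 5, and with DESeq2 and the block it was 3. Over all genes, these block fits called 259 of 14479 and 78 of 28529 lower. Leaving out 1 pair at a time gave between 1 and 7 called members in the block fit: 1 without replicate 1 (DNAJC2), 2 without replicate 2 (HSPA1B and HSPA8) and 7 without replicate 3, where 2.73%, 0.389% and 0.918% of all tested genes were called lower. RLE factors gave 6, no low-count filter 7, and adding HSPA1A to HSPA1B, chosen with the block after seeing the data, 5. In the same order, 279 of 14479, 290 of 28529 and 259 of 14478 genes were called lower over all. The unpaired count stayed at 0 in each alternative without a block. Members called in replicate 1 against replicates 2 and 3 numbered between 7 and 19 when single libraries were left out, against 17 with all. The 7 (without TIM-1 replicate 1) stood beside 1617 of 14809 genes called over all. The 19 (without empty-vector replicate 3) stood beside 4021 of 14897, and the 17 beside 3413 of 14479. With single libraries left out, median log2 fold changes ran from -0.111 to -0.052 for all members, -0.177 to -0.069 for stress-inducible genes, -0.109 to -0.053 for constitutive HSP70, -0.112 to -0.024 for HSP90, -0.114 to -0.051 for the CCT ring and -0.167 to -0.044 for the mitochondrial group. The log2 fold changes of 20 tested members, 0 of them called, then took both signs. Among the genes given by library these were 5: HSPB1 ran from -0.078 to 0.066 (without empty-vector replicate 3), DNAJB1 from -0.250 to 0.022 (without empty-vector replicate 1), HSP90AA1 from -0.248 to 0.085 (without TIM-1 replicate 1), HSPE1 from -0.071 (without TIM-1 replicate 3) to 0.214, and CCT7 from -0.045 to 0.048, with 0.026 and 0.002 without TIM-1 replicates 1 and 2. The causes were not tested. Over all genes, the unpaired test called 2 genes, 25 with DESeq2 and 72 with no filter, and the block fit 725, against 209 with DESeq2. The low-count filter left HSPB8, CRYAB, HSPA2 and SERPINH1 untested.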

Other observations

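Some chaperone transcripts that are usually abundant had few or no counts here. SERPINH1 had 0 counts in all 6 libraries, while its processed pseudogene SERPINH1P1 had 8 in all. HSPE1, which shares a promoter region with HSPD1 and caps the same folding chamber, was 72.6 to 103.2 times lower than HSPD1 per kilobase in each of the 6 libraries. The processed pseudogene HSPE1P2 held 283 counts over the 6 libraries, 35.1% as many as HSPE1, and the readthrough gene HSPE1-MOB4 held 0 in all. Exon bases of HSPE1 overlap other genes for 23.9% of their length, and 17.0% of the 100-base windows of its transcript also occur in other annotated genes. For SERPINH1 both of these shares are 0%. How overlapping and repeated reads were counted was not given in the sources used here, and its part in these low counts was not tested.

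HSPA5, the HSP70 of the endoplasmic reticulum, was at 1025, 2798 and 2676 CPM in TIM-1 replicates 1 to 3 and at 947.5, 2655 and 2730 CPM in the empty-vector replicates. Its log2 difference of replicate 1 from replicates 2 and 3 was -1.46 (edgeR adjusted p = 1.51e-14), while its log2 fold change with TIM-1 was 0.04 (edgeR adjusted p = 0.995). Among the 49 tested cytosolic and mitochondrial chaperones the same replicate difference ran from -0.47 for HSP90AA1 to 0.44 for HSPA14.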
